A study of Mus musculus with 105 samples.

Results

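Mouse CD4+ T cells that had been activated and then kept for 3 h in cycloheximide alone were compared with activated cells kept for 3 h without a drug. The comparison holds 6 libraries, 3 of each group, chosen by their labels among the study's 35 groups of 3. All cells came from spleen and lymph nodes of female C57BL/6J mice aged 6 weeks and were purified by removing other cell types. They were activated with beads that carry antibodies to CD3, of the antigen receptor complex, and to CD28, a costimulatory receptor. Treated cells received cycloheximide at 100 µg/ml. Another 5 groups of activated cells, with 3 libraries each, served as context. They received cycloheximide at 100 µg/ml for 1 h, harringtonine at 2 µg/ml for 3 h, triptolide at 25 µM with cycloheximide at 100 µg/ml for 3 h, triptolide at 25 µM alone for 3 h, or no drug for 1 h. The labels number the replicates 2, 3 and 4. They do not say whether these came from separate mice, so p-values measure the spread between libraries. In the main edgeR tests that spread was estimated over all 35 groups, except where exon and intron changes were set against each other. How long the cells had been activated before a drug was added is not given in the sources used here.

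Cycloheximide binds the large ribosomal subunit and halts elongating ribosomes on the mRNA. Harringtonine also stops protein synthesis, but acts on ribosomes that have just begun a chain, and triptolide blocks initiation by RNA polymerase II. Cells that make no protein lose short-lived proteins first, among them repressors, inhibitors and decay factors. The accumulation of immediate early mRNAs under cycloheximide is a classical observation known as superinduction. Reads in exons come mostly from spliced mRNA, and reads in introns mostly from RNA not yet spliced, so each gene was followed in both.

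The 6 libraries held 1615733 to 3104925 exon counts and 933906 to 2680531 intron counts, close to the series median of 2135827 exon counts. Levels are given as CPM, the exon or intron counts of a gene set to a common library size with TMM scaling, for replicates 2, 3 and 4 in that order, and changes as log2 ratios of cycloheximide-treated over untreated cells with their standard errors. A gene was called changed at an edgeR adjusted p under 0.05, adjusted over all genes tested. The T cell identity genes summed to 8545 to 10080 CPM in treated cells and 6982 to 8660 CPM in untreated cells, and all 18 had counts in both groups. B cell markers summed to 63.83 to 113.8 CPM in treated cells and 79.21 to 150.2 CPM in untreated cells, and myeloid markers to 5.164 to 12.94 CPM in treated cells and 6.038 to 12.6 CPM in untreated cells. CD8 T and NK cell markers summed to 16.96 to 24.81 CPM in treated cells and 17.82 to 18.6 CPM in untreated cells, and erythroid and platelet markers to 7.588 to 10.33 CPM in treated cells and 6.956 to 13.5 CPM in untreated cells. Of the 20 members of these 4 lists that were tested, 0 were called by edgeR without a replicate block and 1 had an unadjusted p under 0.05. With the block Igkc, an antibody light chain (-0.58), and Prf1, the pore protein perforin (0.96), were called, on ERCC scaling 1 myeloid marker was called higher, and on mitochondrial mRNAs 1 myeloid and 1 CD8 T or NK cell marker. Of the T cell identity genes 2 were called higher and 3 lower, or 4 and 8 with the block. Among them, Lcp2, an adaptor of receptor signalling, rose by 0.99. Thy1, Cd3g and Cd28 changed by -0.90, -0.71 and -1.01, and Cd4 stood at 149.7, 142 and 148 CPM in cycloheximide-treated cells, against 166, 127 and 202 CPM in untreated cells.

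After 3 h of cycloheximide the exon levels of 1616 genes were higher and those of 1609 were lower, out of 10741 tested. Hence 30.0% of all genes were called, 15.0% in each direction. A block for the replicate number gave 2254 higher and 2308 lower. The rises were led by transcription factors and feedback genes of receptor signalling, and the falls by transporters and enzymes of amino-acid and sterol metabolism. Under TMM the median gene stood at -0.01, and the split of rises and falls moved with the scaling. Scaled on the ERCC spike-ins, the median gene changed by 0.47, and 2708 genes were higher and 301 lower. Scaled on mitochondrially encoded mRNAs, the median was 0.65 and the split was 3602 higher and 187 lower. Exon counts per ERCC count were 40.3, 31.8 and 35.5 in treated cells, against 27.1, 23.1 and 28.1 in untreated cells. The means were 35.9 ± 4.25 in treated cells and 26.1 ± 2.62 in untreated cells (SD, n = 3 each), or 137.3% of untreated, and the groups did not overlap (exact permutation test, two-sided, p = 0.1, the smallest p that 3 against 3 allows). Intron counts per ERCC count overlapped, at 18.8 ± 6.59 in treated cells and 19.96 ± 6.52 in untreated cells (SD, n = 3 each; exact permutation test, two-sided, p = 0.9). In bulk RNA, fewer cells of a type and less RNA per cell cannot be told apart.

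Immediate early genes, which cells switch on within minutes of a signal without making new protein first, were higher as a group. Of 40 tested, 29 rose, 0 fell and 11 were not called (34 rose and 1 fell with the replicate block), with a median change of 1.84 against -0.01 over all genes. Fos, the AP-1 subunit, had 553, 678 and 653 CPM in cycloheximide-treated cells, against 36.2, 51.6 and 45.6 CPM in untreated cells. Its treated libraries all lay far above the untreated ones, a change of 3.83 ± 0.36 (edgeR adjusted p = 8.40e-14). Egr1, a zinc finger factor of receptor signalling, had 2243, 1393 and 2066 CPM in cycloheximide-treated cells, against 169.8, 115 and 156 CPM in untreated cells, a change of 3.69 ± 0.28 (edgeR adjusted p = 9.32e-19). The related Egr4 had 19.7, 13.8 and 33.6 CPM in cycloheximide-treated cells, against 0.355, 0 and 1.30 CPM in untreated cells, with 1 untreated library at 0, and Egr2, a brake on T cell activation, had 586, 895 and 1152 CPM in cycloheximide-treated cells, against 129, 236 and 196 CPM in untreated cells. Zfp36, which encodes tristetraprolin, a protein that binds AU-rich elements and speeds mRNA decay, had 492, 365 and 657 CPM in cycloheximide-treated cells, against 27.7, 50.4 and 43.5 CPM in untreated cells, a change of 3.65 ± 0.31 (edgeR adjusted p = 9.22e-16). Btg2, an adaptor of the CCR4-NOT deadenylase, had 2312, 2412 and 1816 CPM in cycloheximide-treated cells, against 229.8, 281 and 197 CPM in untreated cells, a change of 3.21 ± 0.25 (edgeR adjusted p = 4.85e-18). In each of these genes the 3 treated libraries lay above the 3 untreated ones.

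AP-1 partners moved unequally. Junb rose by 2.78, with 3049, 4147 and 6868 CPM in cycloheximide-treated cells, against 445, 926 and 683 CPM in untreated cells, and Jun by 2.72. Fosb rose by 2.16, Fosl2 by 2.07 and Fosl1 by 1.88, while Jund, at 0.998, was not called. Ier2 rose by 3.05, Csrnp1 by 3.04, Maff by 2.57 and the orphan nuclear receptor gene Nr4a1 by 1.63, but its relatives Nr4a2 (1.08) and Nr4a3 (0.64) did not pass the test. The phosphatases of MAP kinases split in the same way: Dusp1, Dusp2 and Dusp6 rose by 1.18, 1.45 and 1.08, while Dusp4 and Dusp5 stood at 0.01 and 0.32. Dusp8, a phosphatase of JNK and p38 kinases and no member of the list, had 121, 109 and 167 CPM in cycloheximide-treated cells, against 5.68, 3.0003 and 3.04 CPM in untreated cells, a change of 5.01 ± 0.36 (edgeR adjusted p = 5.29e-19). Myc, the growth regulator, was not called at 0.43, with 476, 276 and 639.9 CPM in cycloheximide-treated cells, against 376, 318 and 343 CPM in untreated cells. The group kept its direction under every scaling tried, with 32 called higher on ERCC scaling and 36 on mitochondrial mRNAs, and 30, 29 and 26 called higher without replicates 2, 3 and 4.

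**Figure D1:**
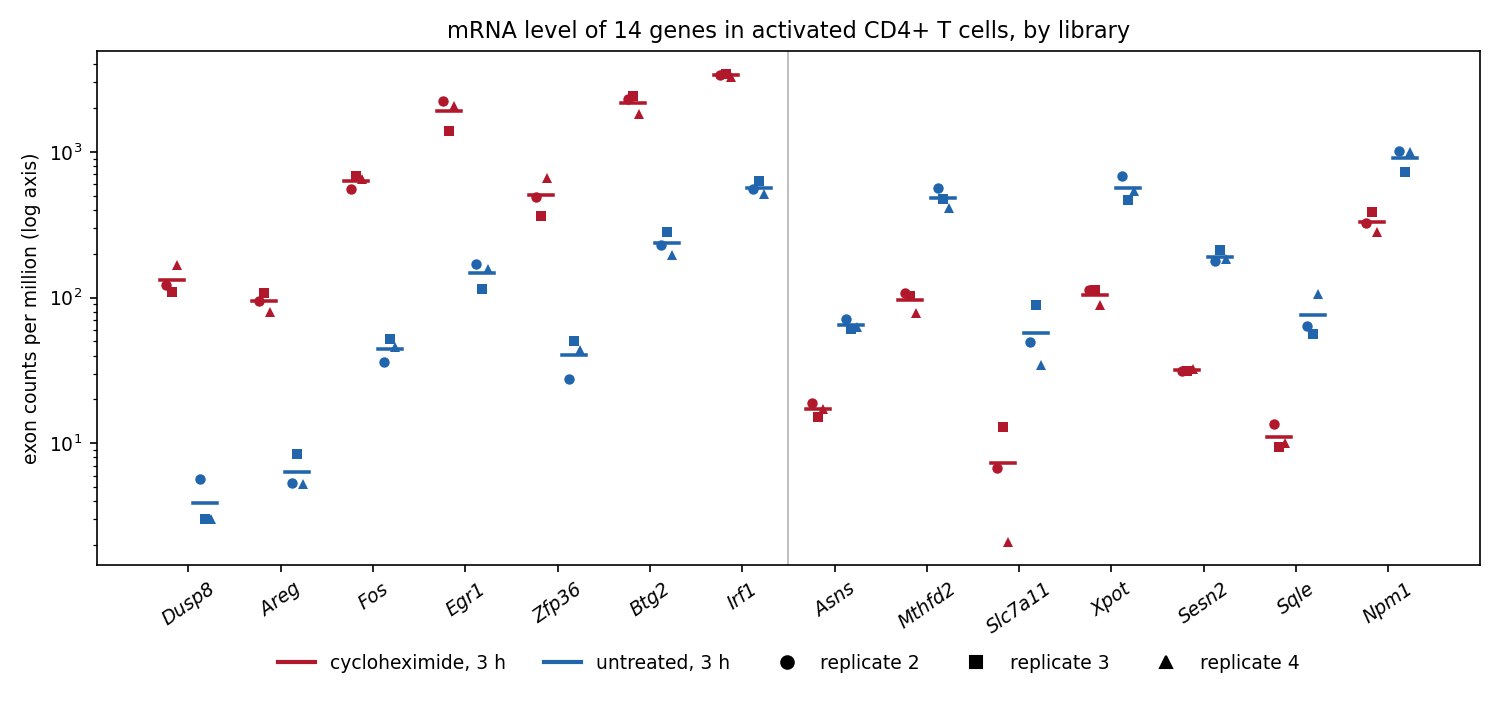
Exon CPM (log axis) of 14 genes in each library, with cycloheximide-treated cells to the left of untreated cells. Markers are replicates and bars are means; Dusp8, Areg, Fos, Egr1, Zfp36, Btg2 and Irf1 lie higher in treated cells and Asns, Mthfd2, Slc7a11, Xpot, Sesn2, Sqle and Npm1 lie lower.

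The promoters of Zfp36 and Egr2 are shown because each holds a CArG box, the site bound by serum response factor, which drives many immediate early genes. Both are the RefSeq sequence of GRCm38.p6, 5′ to 3′ on the gene's strand, ending shortly before the RefSeq start, with the box in capitals: Zfp36 at chr7:28379237-28379326 on the minus strand, with its box starting 58 bases before the start, and Egr2 at chr10:67537454-67537543 on the plus strand, with its box starting 72 bases before the start.
Zfp36: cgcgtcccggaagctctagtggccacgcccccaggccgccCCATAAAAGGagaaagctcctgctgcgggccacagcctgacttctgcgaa
Egr2: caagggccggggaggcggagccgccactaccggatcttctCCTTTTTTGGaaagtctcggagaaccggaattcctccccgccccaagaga
The search covered 250 bases before to 50 bases after the start of each gene on both strands. A CArG box was found in 4 of the 29 immediate early genes with a promoter in the table (13.79%) and in 488 of all 27025 promoters (1.806%), and the cyclic AMP response element TGACGTCA in 3 of 29 (10.34%) and 549 of 27025 (2.031%).

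Beyond this list, Areg, an EGF receptor ligand, had 95.2, 108 and 79.6 CPM in cycloheximide-treated cells, against 5.33, 8.40 and 5.22 CPM in untreated cells, a change of 3.92 ± 0.40 (edgeR adjusted p = 7.22e-13). Irf1, a transcription factor of the interferon response, had 3345, 3415 and 3269.9 CPM in cycloheximide-treated cells, against 553, 631 and 512 CPM in untreated cells, a change of 2.56 ± 0.27 (edgeR adjusted p = 4.82e-12). Hpn, a membrane serine protease, rose by 3.55, Sgip1, an endocytic adaptor, by 3.53, Lrrtm2, a synaptic adhesion protein in neurons, by 3.40, Slc15a3, a lysosomal peptide transporter, by 3.29, and Apol9b, of the apolipoprotein L family, by 3.19. Mxd1, which pairs with Max in place of Myc, rose by 3.07, and of the 9 genes of that network only Mxd1 and Mxi1 (0.82) were called, against 3 higher and 2 lower with the replicate block.

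NF-kB drives its own inhibitors, and 14 of 19 inhibitor and feedback genes rose while Tnip2 (-0.75) fell, with a median of 1.18. Nfkbia, the classical inhibitor of NF-kB, had 1606, 1370.3 and 1815 CPM in cycloheximide-treated cells, against 461, 508 and 473 CPM in untreated cells, a change of 1.73 ± 0.25 (edgeR adjusted p = 5.22e-08). Tnfaip3, which encodes the ubiquitin-editing enzyme A20, had 2337, 2580.3 and 2268 CPM in cycloheximide-treated cells, against 722, 622 and 589 CPM in untreated cells, a change of 1.89 ± 0.22 (edgeR adjusted p = 1.40e-10). Nfkbiz rose by 2.81, Nfkbie by 2.34, Bcl3 by 2.44, and the adhesion ligand gene Icam1 by 2.81. Among the factor genes, Rela and Relb rose by 1.18 and 1.17, while Nfkb1 (0.17) and Rel (0.90) were not called. The intron counts of 15 of the 19 genes were also higher, with a median of 1.28. On ERCC scaling 15 exon changes and 5 intron changes were called higher.

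Cytokine genes moved in both directions, 8 up and 5 down of 27 tested, with a median of 0.03. Cxcl10, a chemokine induced by interferon, had 106, 87.0 and 108 CPM in cycloheximide-treated cells, against 25.6, 28.2 and 20.4 CPM in untreated cells, a change of 2.02 ± 0.36 (edgeR adjusted p = 5.09e-06). Lif, of the IL-6 family, had 576, 426 and 487 CPM in cycloheximide-treated cells, against 158, 125 and 133 CPM in untreated cells, a change of 1.84 ± 0.35 (edgeR adjusted p = 2.28e-05). Csf1 rose by 1.96, Il10 by 1.26, Il16 by 0.91 and Tnf by 0.70. Il2, the T cell growth factor, fell instead, with 57.1, 56.2 and 57.5 CPM in cycloheximide-treated cells, against 147, 162 and 120.0 CPM in untreated cells, a change of -1.33 ± 0.34 (edgeR adjusted p = 0.00125). Il13, Ccl4, Csf2 and Xcl1 changed by -3.26, -2.07, -1.64 and -1.47, and Ifng, at 6.45, 8.48 and 4.54 CPM in cycloheximide-treated cells, against 6.75, 7.80 and 5.22 CPM in untreated cells, was not called. On ERCC scaling 8 were higher and 2 lower, beside 2708 higher and 301 lower of all 10741 genes.

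Receptor and SOCS feedback genes gave 12 rises and 3 falls of 28. Socs3, which blocks JAK kinases, had 107, 166 and 129 CPM in cycloheximide-treated cells, against 12.8, 22.8 and 22.6 CPM in untreated cells, a change of 2.80 ± 0.36 (edgeR adjusted p = 2.69e-09). Il4ra had 2221, 2609 and 2261 CPM in cycloheximide-treated cells, against 505, 621 and 441 CPM in untreated cells, a change of 2.18 ± 0.24 (edgeR adjusted p = 8.03e-12), and Il21r, Ifngr1 and Ifngr2 rose by 1.69, 1.60 and 1.53. Il12rb1, Il6st, the shared receptor subunit gp130, and Socs7 changed by -1.66, -1.18 and -0.78. Il2ra, the high-affinity subunit of the IL-2 receptor, had 629, 434 and 528 CPM in cycloheximide-treated cells, against 943, 523 and 756 CPM in untreated cells. It was not called without a replicate block at -0.48 and was called with it at -0.44 (edgeR adjusted p = 0.0300). Interferon-stimulated genes rose in 10 of 28 and fell in 2, Gbp2 (-1.26) and Bst2 (-0.86).

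Markers of T cell activation did not share a direction. Of 29 tested, 6 rose and 7 fell, and the median was -0.23 on TMM but 0.26 on ERCC scaling. There 7 were higher and 2 lower, beside 2708 higher and 301 lower of all 10741 genes. Cd69, an early surface marker, had 3538, 3481 and 3506 CPM in cycloheximide-treated cells, against 1747, 1488 and 1572 CPM in untreated cells, a change of 1.13 ± 0.31 (edgeR adjusted p = 0.00333). Tbx21, the master factor of Th1 cells, had 271, 149.5 and 450.2 CPM in cycloheximide-treated cells, against 85.2, 43.8 and 63.5 CPM in untreated cells, a change of 2.17 ± 0.49 (edgeR adjusted p = 0.000356). Tfrc, the transferrin receptor, had 392, 468 and 307 CPM in cycloheximide-treated cells, against 1113, 867 and 886 CPM in untreated cells, a change of -1.30 ± 0.23 (edgeR adjusted p = 4.71e-06), and Icos and Tnfrsf9, both costimulatory receptors, changed by -0.69 and -1.19. Irf4, at 3292, 3659 and 3227 CPM in cycloheximide-treated cells, against 4868, 4982 and 4648 CPM in untreated cells, was not called without a replicate block at -0.51 and was called with it at -0.51 (edgeR adjusted p = 0.00885). Genes of the naive and resting state gave 9 rises and 2 falls of 26. Klf2, which holds T cells at rest, had 125, 97.8 and 203 CPM in cycloheximide-treated cells, against 38.01, 35.4 and 44.3 CPM in untreated cells, a change of 1.85 ± 0.39 (edgeR adjusted p = 9.81e-05). Tob2, Tsc22d3 and Txnip rose by 2.52, 2.03 and 1.89, and Foxp1 and Ikzf1 changed by -0.79 and -0.90.

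ATF4 is a transcription factor that switches on amino-acid synthesis, amino-acid transport and tRNA charging when amino acids run short. Of 34 such genes, 0 rose and 29 fell, with a median of -1.33. Asns, the asparagine synthetase gene at chr6:7675169-7693254, had 19.04, 15.2 and 17.2 CPM in cycloheximide-treated cells, against 71.0, 60.6 and 63.0 CPM in untreated cells, a change of -1.91 ± 0.33 (edgeR adjusted p = 3.66e-06). Phgdh, the first enzyme of serine synthesis, had 304, 327 and 269 CPM in cycloheximide-treated cells, against 858, 1106 and 901 CPM in untreated cells, a change of -1.67 ± 0.22 (edgeR adjusted p = 2.90e-09). Mthfd2, a mitochondrial folate enzyme, had 108, 103 and 78.1 CPM in cycloheximide-treated cells, against 560.5, 478 and 412 CPM in untreated cells, a change of -2.33 ± 0.27 (edgeR adjusted p = 1.03e-10). Slc7a11, the cystine importer at chr3:49892526-50443614, had 6.78, 12.9 and 2.12 CPM in cycloheximide-treated cells, against 49.7, 88.2 and 34.3 CPM in untreated cells, a change of -3.03 ± 0.43 (edgeR adjusted p = 3.38e-08). Psat1, Shmt2 and Gpt2 changed by -1.92, -1.53 and -2.38. In each of the genes given by library, no treated value reached an untreated one.

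The list also holds transfer RNA synthetase genes. Gars, Nars, Tars, Sars and Aars changed by -1.56, -1.36, -1.32, -1.20 and -1.06, and Yars, at chr4:129189760-129219607, had 177, 126 and 97.4 CPM in cycloheximide-treated cells, against 289, 191 and 199 CPM in untreated cells, the smallest called fall of the synthetases at -0.77. Vars, at -0.49, was not called. Among transporters, Slc7a5, the leucine importer, had 314, 227 and 266 CPM in cycloheximide-treated cells, against 1075, 749 and 874 CPM in untreated cells, a change of -1.74 ± 0.39 (edgeR adjusted p = 0.000311), and Slc38a2, at -0.21, was not called. Xpot, the exporter of tRNA from the nucleus and no member of the list, had 112, 113 and 88.4 CPM in cycloheximide-treated cells, against 684, 464 and 538 CPM in untreated cells, a change of -2.43 ± 0.18 (edgeR adjusted p = 9.32e-19). On ERCC scaling 16 of the 34 were still called lower, with a median of -0.84, and on mitochondrial mRNAs 11, with a median of -0.66.

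Regulators around ATF4 moved in both directions. Atf4 itself, at 533, 784 and 765 CPM in cycloheximide-treated cells, against 482, 667 and 626 CPM in untreated cells, was not called. Of 18 regulators 3 rose, Atf3 (1.703), the kinase gene Eif2ak3 (1.56) and Ppp1r15a (0.90), which brings a phosphatase to eIF2. A further 6 fell, Sesn2, Chac1, Trib3, Atf5, Cebpb and Cebpg, by -2.59, -2.21, -1.94, -1.35, -1.26 and -0.97. Sesn2, a leucine sensor that restrains mTORC1, had 31.3, 31.2 and 32.4 CPM in cycloheximide-treated cells, against 177, 211 and 185 CPM in untreated cells. Its 3 treated libraries lay below the 3 untreated ones.

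Promoter windows of 4 genes of the ATF4 list are shown because they hold the letters TGATGNAA, the core to which ATF4 and C/EBP proteins bind, in capitals on either strand. The sequences are from RefSeq GRCm38.p6, 5′ to 3′ on the gene's strand, and starts are RefSeq's. The gene spans given for Asns, Slc7a11 and Yars are those of GENCODE M21, which place the start elsewhere. Asns is chr6:7693210-7693272 on the minus strand, with the match starting 23 bases before the RefSeq start. Aars is chr8:111033690-111033777 on the plus strand, Slc7a11 is chr3:50443614-50443719 on the minus strand with 2 matches, and Yars is chr4:129189896-129189923 on the plus strand, where the match lies just past the RefSeq start.
Asns: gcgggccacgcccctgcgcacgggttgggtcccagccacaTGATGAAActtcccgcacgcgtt
Aars: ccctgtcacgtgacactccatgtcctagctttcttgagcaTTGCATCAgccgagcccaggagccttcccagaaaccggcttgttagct
Slc7a11: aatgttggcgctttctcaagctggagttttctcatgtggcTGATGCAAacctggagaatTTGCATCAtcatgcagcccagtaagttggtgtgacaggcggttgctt
Yars: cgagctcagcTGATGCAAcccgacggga
The motif was found in 9 of the 24 list members with a promoter in the table (37.5%) and in 1219 of all 27025 promoters (4.511%). A match is a stretch of letters and not a measured binding site.

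Genes that build and run the ribosome were lower. Ribosome biogenesis genes fell in 36 of 52 and rose in 0 (43 and 1 with the replicate block), with a median of -0.74. Npm1, a nucleolar chaperone, had 324, 388 and 281 CPM in cycloheximide-treated cells, against 1013, 728 and 993 CPM in untreated cells, a change of -1.46 ± 0.19 (edgeR adjusted p = 3.81e-09). Ncl, the nucleolin gene, had 599.6, 356 and 551 CPM in cycloheximide-treated cells, against 1427, 630.1 and 1442 CPM in untreated cells, a change of -1.22 ± 0.47 (edgeR adjusted p = 0.043). Polr1b, a core subunit of RNA polymerase I, changed by -1.43, Dkc1, the pseudouridine synthase, by -1.63, and Wdr12 by -1.97. Utp15, at -0.05, was not called. Of 79 cytosolic ribosomal protein genes 66 fell and 0 rose, with a median of -0.91. Rpl32 had 2306, 4537 and 1106 CPM in cycloheximide-treated cells, against 4678, 6492 and 2306 CPM in untreated cells and was not called at -0.76 without a replicate block and was called at -0.86 with it (edgeR adjusted p = 0.00452). Rpsa had 1862, 2939.7 and 2193 CPM in cycloheximide-treated cells, against 3664, 5856 and 3822 CPM in untreated cells, a change of -0.93 ± 0.28 (edgeR adjusted p = 0.00654). These genes have processed copies. Alignments that were not unique were counted apart from genes, so the share of each copy is uncertain. How an alignment was judged unique is not given in the sources used here. Translation factors fell in 28 of 49, Eef1a1, the elongation factor that brings tRNA to the ribosome, with 6272, 9706 and 5760.4 CPM in cycloheximide-treated cells, against 14076, 15966 and 13088 CPM in untreated cells. The initiation factor genes Eif4a2 (0.89) and Eif5 (0.50) rose.

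These 3 groups depended on the scaling and on the number of libraries. On ERCC scaling the medians lay below 0, at -0.26, -0.42 and -0.23 for biogenesis, ribosomal protein and translation factor genes, and 8, 2 and 3 genes were called lower. On mitochondrial mRNAs 6, 0 and 1 were called lower. Leaving out replicates 2, 3 and 4 in turn left 19, 25 and 15 biogenesis genes, 24, 51 and 24 ribosomal protein genes and 15, 25 and 16 translation factor genes called lower. Mitochondrially encoded mRNAs had a median of -0.69, with mt-Co1 (-0.65) and mt-Nd1 (-0.91) called of 13. With the replicate block 5 were called lower, and on ERCC scaling their median was -0.21 with 0 called.

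**Figure D2:**
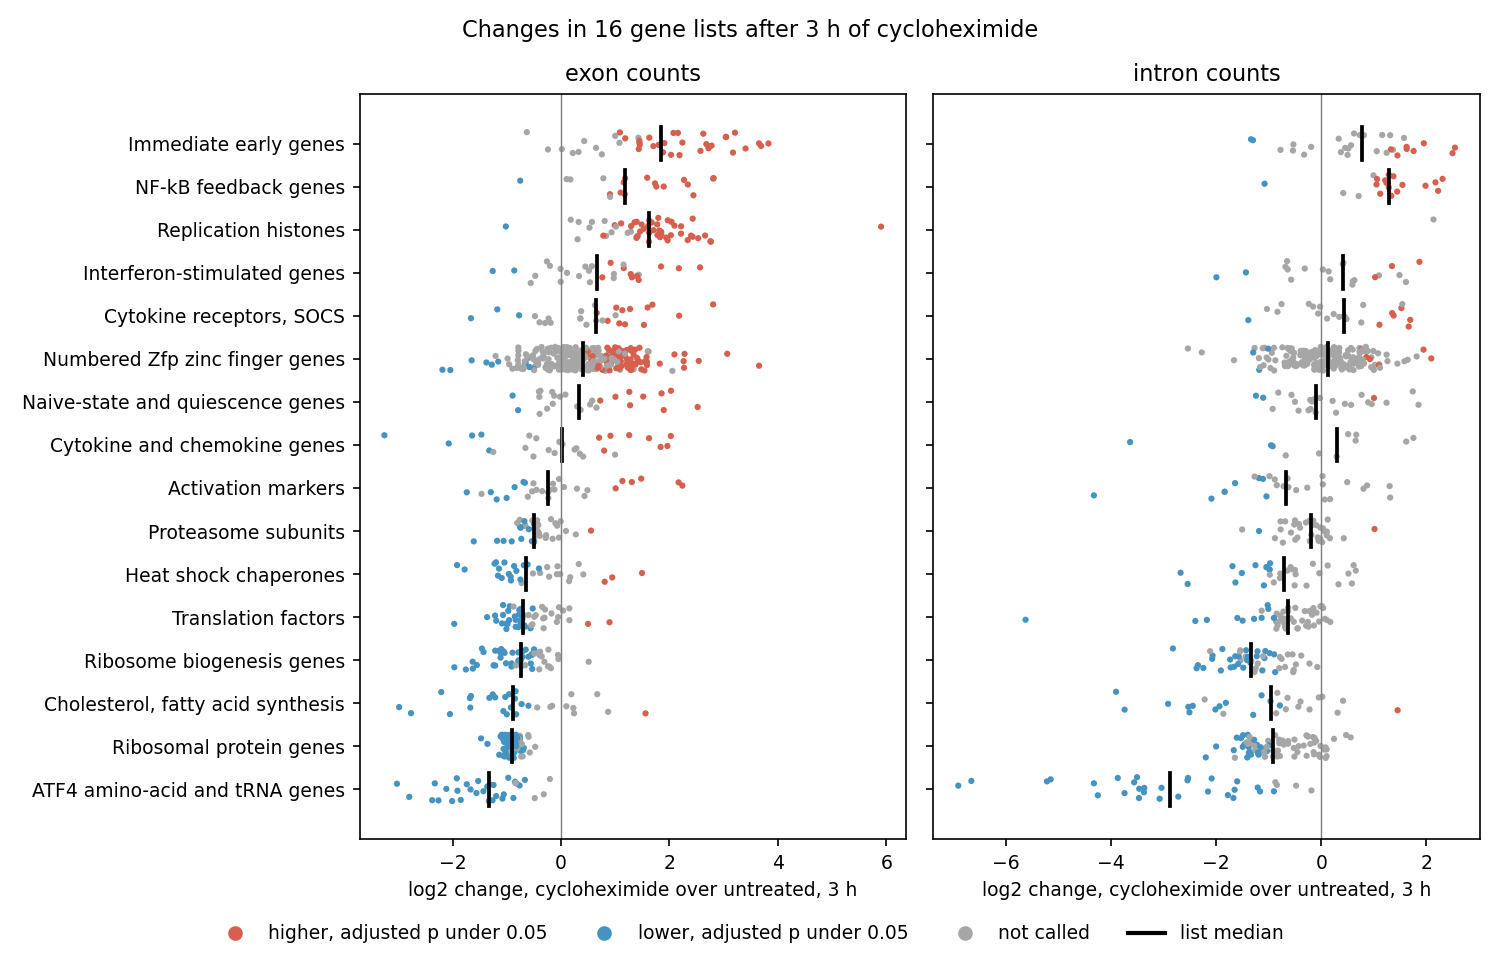
Log2 change (cycloheximide-treated over untreated cells) of each gene of 16 lists, exon counts in the left panel and intron counts in the right panel. Red points were called higher, blue points lower and grey points were not called, and black bars are medians of lists with at least 5 genes; immediate early genes (29 of 40) and histone genes (42 of 54) rose, and the ATF4 list (29 of 34) fell in exons.

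Sterol and fatty acid synthesis genes, which SREBP factors drive, fell in 20 of 30. Sqle, squalene epoxidase, had 13.6, 9.37 and 9.98 CPM in cycloheximide-treated cells, against 64.3, 55.8 and 106 CPM in untreated cells, a change of -2.77 ± 0.32 (edgeR adjusted p = 5.04e-11). Cyp51, a demethylase of the pathway, changed by -2.05, Fasn, the fatty acid synthase, by -1.68, and Srebf2 itself by -0.96. Insig2, which retains SREBP in the endoplasmic reticulum, rose by 1.56. On ERCC scaling 7 were called lower and 3 higher, with a median of -0.43. Without replicate 4 the falls numbered 12. The sterol element letters ATCACNCCA were found in the promoter of Srebf2, 1 of 22 members in the table (4.545%), and in 268 of 27025 (0.9917%).

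Glycolysis genes fell in 11 of 22. Hk2, the hexokinase induced on activation, had 15.8, 6.70 and 17.2 CPM in cycloheximide-treated cells, against 98.4, 34.8 and 80.9 CPM in untreated cells, a change of -2.41 ± 0.49 (edgeR adjusted p = 6.77e-05). Slc16a1, the lactate transporter MCT1, had 75.2, 71.9 and 69.0 CPM in cycloheximide-treated cells, against 432, 382 and 373 CPM in untreated cells, a change of -2.46 ± 0.21 (edgeR adjusted p = 6.15e-16). Pgam1, Pgk1 and Ldha changed by -1.74, -1.59 and -0.94, whereas Hk1 and Pfkfb3 rose by 1.11 and 1.36. On ERCC scaling 5 were lower and 3 higher. In polyamine synthesis, Srm, Amd1 and Sms changed by -1.27, -0.87 and -0.74, and Azin1 and Smox rose by 0.68 and 0.61. Odc1, the first enzyme of the pathway, had 1918, 3293 and 1269.9 CPM in cycloheximide-treated cells, against 2219, 3024 and 1402 CPM in untreated cells and was not called. Further falls among the largest were Ak4, a mitochondrial adenylate kinase (-3.47), Cldn12, a tight junction protein (-2.69), Nefh, a neurofilament (-2.69), St6galnac4, a sialyltransferase (-2.51), Rcn1, a calcium-binding protein (-2.41), and Ccdc85c (-2.73).

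Replication-dependent histone genes, whose mRNAs end in a stem-loop instead of a poly(A) tail, rose in 42 of 54, with a median of 1.62. Hist1h4c had 247, 319 and 345 CPM in cycloheximide-treated cells, against 34.8, 77.4 and 47.4 CPM in untreated cells, a change of 2.53 ± 0.35 (edgeR adjusted p = 2.10e-08). Hist1h1c, a linker histone gene, had 485, 666 and 932 CPM in cycloheximide-treated cells, against 109, 274 and 131 CPM in untreated cells, a change of 2.03 ± 0.40 (edgeR adjusted p = 4.65e-05). Hist1h1b, also a linker histone gene, was the single member called lower, with 10.004, 9.37 and 9.68 CPM in cycloheximide-treated cells, against 20.96, 25.8 and 13.04 CPM in untreated cells, a change of -1.02 ± 0.37 (edgeR adjusted p = 0.0297), and lost the call when a replicate was left out (highest adjusted p 0.274). Histone genes are near-identical copies, so the share of each gene is uncertain. Without replicates 2, 3 and 4, 30, 43 and 27 were called higher, and on ERCC scaling 45. Cyclin and S phase genes gave 6 rises and 4 falls of 37, beside 15.0% of all genes in each direction. On ERCC scaling 10 were higher and 1 lower, beside 2708 higher and 301 lower of all 10741 genes. Cdt1, a licensing factor of replication, rose by 1.68, and the splicing cyclins Ccnl1 and Ccnl2 by 2.23 and 1.05. Ccnd2, the G1 cyclin, had 181, 42.4 and 98.9 CPM in cycloheximide-treated cells, against 868, 291 and 502 CPM in untreated cells, a change of -2.36 ± 0.65 (edgeR adjusted p = 0.00351), and its partner kinase Cdk4 changed by -1.87.

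Chaperone genes fell in 17 of 32 and rose in 3. Hspd1, the mitochondrial HSP60, had 109, 98.6 and 77.2 CPM in cycloheximide-treated cells, against 403, 290.4 and 382 CPM in untreated cells, a change of -1.92 ± 0.22 (edgeR adjusted p = 7.14e-11). Hsp90ab1, the constitutive cytosolic HSP90, had 1154, 1062 and 893 CPM in cycloheximide-treated cells, against 2597, 2064 and 2618 CPM in untreated cells, a change of -1.23 ± 0.19 (edgeR adjusted p = 3.97e-07). All 7 genes of the cytosolic chaperonin in the list fell, from Cct4 at -0.41 to Tcp1 at -1.20. Dnajb4, Dnajb1 and Chordc1 rose by 1.49, 0.94 and 0.80. Proteasome genes fell in 13 of 38, Psma5 (-1.61) and Psma7 (-1.18) among them, and Psmb9, an immunoproteasome subunit, rose by 0.55. With the replicate number as a block, 26 proteasome genes were called lower, and without replicates 2, 3 and 4, 4, 7 and 3. Tubulin genes fell in 4 of 13. Tuba1b had 62.0, 52.2 and 75.9 CPM in cycloheximide-treated cells, against 198, 217 and 231 CPM in untreated cells, a change of -1.76 ± 0.23 (edgeR adjusted p = 3.61e-09), the remaining 3 called were Tubb5, Tuba1c and Tuba4a, and with any 1 replicate left out 1 tubulin gene was called lower. On ERCC scaling 3 chaperone genes, 2 proteasome genes and 1 tubulin gene were called lower. On mitochondrial mRNAs the medians of these 3 groups lay above 0, at 0.0033, 0.17 and 0.09.

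RNA-processing genes changed in part. Among SR proteins and related splicing regulators, many of which control their own mRNA through exons that carry a premature stop, 9 of 44 rose and 3 fell, or 18 and 5 with the replicate block. Clk1, a kinase of SR proteins, had 492, 666 and 495 CPM in cycloheximide-treated cells, against 142, 174 and 138 CPM in untreated cells, a change of 1.87 ± 0.24 (edgeR adjusted p = 1.94e-09). Clk4, Rbm39 and Rbm5 rose by 1.49, 1.30 and 1.22, and Srsf1, Srsf2 and Hnrnpk changed by -0.68, -0.50 and -0.77. On ERCC scaling 21 were higher and 0 lower, beside 2708 higher and 301 lower of all 10741 genes. Of 21 nonsense-mediated decay factors, Pnrc2 rose by 1.62 and Gspt1, Magoh and Etf1 changed by -0.69, -0.62 and -0.54, with Upf1, the central helicase, at 0.12. With the block 3 rose and 4 fell, and on ERCC scaling 2 were higher and 0 lower, beside the same 2708 and 301 of all 10741 genes. Deadenylation, decapping and exosome genes gave 8 rises and 8 falls of 43 on TMM, beside 15.0% of all genes in each direction. On ERCC scaling 12 were higher and 1 lower, beside 2708 higher and 301 lower of all 10741 genes. Pnrc1, Ddx6 and Dcp1b rose by 1.29, 0.84 and 0.91, and the exosome nuclease Dis3 and Lsm6 changed by -0.97 and -1.52. Besides Zfp36, the cytokine mRNA decay regulators Zc3h12a, the nuclease Regnase-1, and Arid5a rose by 1.99 and 1.71, and Ybx1 and Zc3h12d changed by -1.39 and -1.01, of 18 tested. Of 8 snoRNA host genes, 1 rose and 1 fell, beside 15.0% of all genes in each direction, or 2 and 3 with the block.

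Elongation genes were higher in 7 of 22 and lower in Nelfe (-1.001), or 12 and 2 with the replicate block. Ell2, of the super elongation complex, had 85.8, 129.9 and 94.1 CPM in cycloheximide-treated cells, against 16.7, 24.0 and 16.1 CPM in untreated cells, a change of 2.46 ± 0.27 (edgeR adjusted p = 1.26e-11). Hexim1, which holds P-TEFb inactive, rose by 0.84, and its cyclins Ccnt1 and Ccnt2 by 1.17 and 0.66. Of 276 numbered Zfp genes, zinc finger factors of mostly unknown role, 87 rose and 10 fell, or 106 and 21 with the replicate block, with a median of 0.41. Among BCL2 genes, Mcl1, a survival protein with a short life, had 1572, 1883 and 2254 CPM in cycloheximide-treated cells, against 575, 809 and 642 CPM in untreated cells, a change of 1.496 ± 0.22 (edgeR adjusted p = 6.58e-08). Pmaip1, the killer protein NOXA, rose by 2.28, and Bax and Bid changed by -1.59 and -1.28. Genes of p53 and its targets gave 7 rises and 8 falls of 27, with Trp53 at 0.03 and Mdm2 higher by 0.82.

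**Figure D3:**
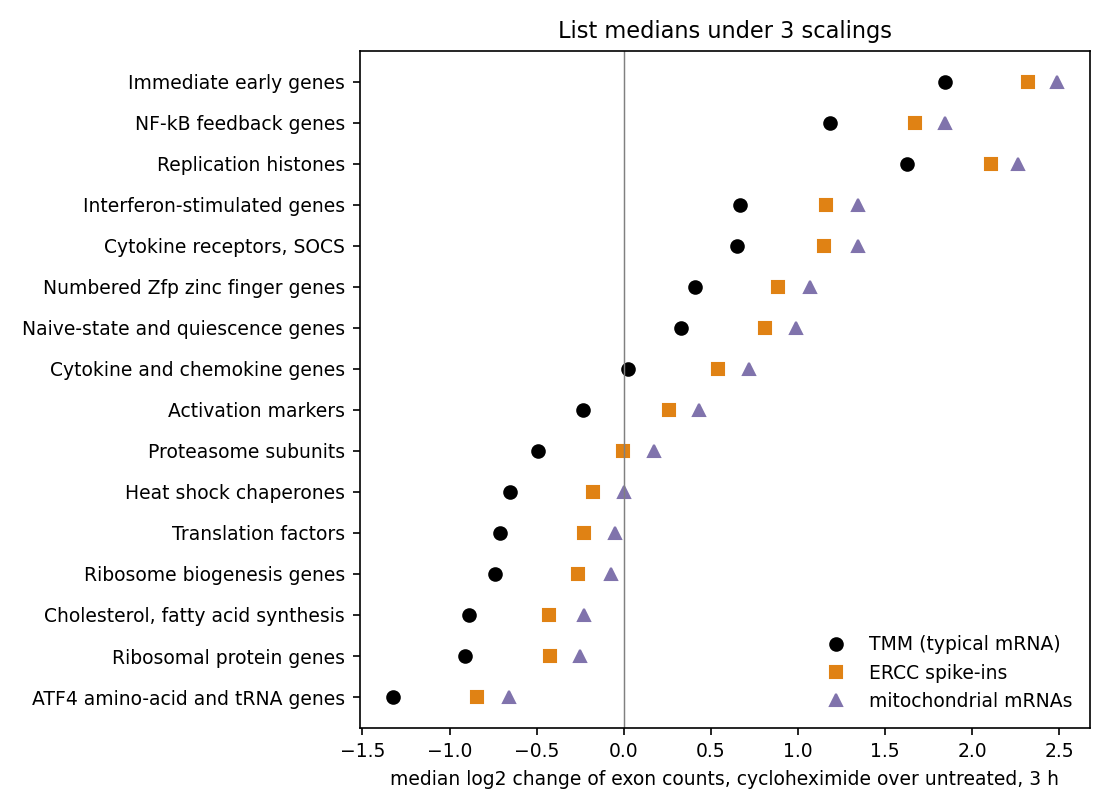
Median log2 change (cycloheximide-treated over untreated cells) in exon counts of 16 gene lists under TMM, ERCC spike-in and mitochondrial mRNA scaling. The ERCC and mitochondrial scalings shift all lists up, by a median over all genes of 0.47 and 0.65 against -0.01 under TMM.

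Intron counts were compared to follow RNA not yet spliced. Of 10750 genes tested, 666 were higher and 802 lower in treated cells, 13.7% in all, 6.20% up and 7.46% down. With the replicate number as a block the count was 2759, and without replicates 2, 3 and 4 in turn it lay between 705 and 930. On ERCC scaling 132 introns were higher and 370 lower, and DESeq2 gave 697 higher and 1327 lower. The falls were led by ATF4 genes, of which 28 of 32 fell and 0 rose, with a median of -2.88, and 24 fell on ERCC scaling. Phgdh introns had 4.24, 1.37 and 7.31 CPM in cycloheximide-treated cells, against 193, 119 and 195 CPM in untreated cells, a change of -5.22 ± 0.41 (edgeR adjusted p = 5.55e-17). Introns of Eif4ebp1, a translation repressor gene, had 1.06, 0 and 1.04 CPM in cycloheximide-treated cells, against 56.6, 21.2 and 48.9 CPM in untreated cells, a change of -5.63 ± 0.90 (edgeR adjusted p = 2.48e-06). Asns had 0, 0.683 and 0 CPM in cycloheximide-treated cells, against 29.2, 23.2 and 37.8 CPM in untreated cells. This was 1 count in all treated libraries against 244 in untreated ones, a ratio of 0.528% (95% exact interval 0.0133% to 2.97%, counting error only). Slc6a9, the glycine transporter, had 3 counts against 469, a ratio of 0.825% (0.169% to 2.42%), and Gpt2, alanine transaminase, had 3 against 175, a ratio of 2.21% (0.451% to 6.57%). Slc6a9 overlaps Ccdc24 and B4galt2 on the other strand, and whether the counting used strand is not given in the sources used here.

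Introns of genes outside the ATF4 list were also called lower. Those of Pck2, a mitochondrial enzyme of gluconeogenesis, changed by -4.65. Ribosome biogenesis introns fell in 28 of 50, with a median of -1.34, ribosomal protein introns in 22 of 77 (36 with the replicate block), with a median of -0.92, and sterol synthesis introns in 13 of 27, with a median of -0.97. On ERCC scaling 14 biogenesis introns and 9 sterol synthesis introns were called lower, and without replicate 2 the numbers on TMM were 17 and 7, with 8 for ribosomal proteins. Many ribosome genes carry snoRNAs in introns, whose reads the intron counts may hold. Il2 introns had 4.60, 10.9 and 8.36 CPM in cycloheximide-treated cells, against 82.3, 106 and 103 CPM in untreated cells, a change of -3.64 ± 0.45 (edgeR adjusted p = 2.34e-09). Irf4 introns had 275, 376 and 429 CPM in cycloheximide-treated cells, against 986, 1357 and 1516 CPM in untreated cells, a change of -1.84 ± 0.30 (edgeR adjusted p = 2.88e-06), while its exons were not called without a replicate block. Myc introns, too, changed by -1.34 while its exons stood at 0.43.

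Introns that rose belonged in part to genes whose exons rose. Dusp8 introns had 31.1, 44.4 and 45.4 CPM in cycloheximide-treated cells, against 1.89, 1.99 and 4.003 CPM in untreated cells, a change of 3.91 ± 0.65 (edgeR adjusted p = 3.63e-06). Zbtb46, a zinc finger factor, had 146, 77.2 and 145 CPM in cycloheximide-treated cells, against 8.72, 3.31 and 8.45 CPM in untreated cells, a change of 4.08 ± 0.48 (edgeR adjusted p = 1.98e-10). Pak1, a kinase downstream of Rac, had 47.0, 58.1 and 44.9 CPM in cycloheximide-treated cells, against 2.12, 2.65 and 4.89 CPM in untreated cells, a change of 3.96 ± 0.47 (edgeR adjusted p = 3.37e-10). Gng4, a G protein subunit, Rasgrp4, an activator of Ras, and Mpp7, a scaffold protein, rose by 4.15, 4.18 and 3.67. Rasgrp4 overlaps Fam98c on the other strand. Of immediate early genes, 8 of 30 with tested introns rose (14 with the replicate block) and 2 fell, with Fos at 2.498, Gem at 2.54 and Btg2 at 1.45, and Egr1 (1.57) and Zfp36 (1.24) not called. Scaled on ERCC, 2 of the 30 were called higher and 0 lower.

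The exon change was then set against the intron change within each library. Of 7349 genes, 224 had an exon change above the intron change (3.05%) and 118 had one below it (1.61%), 4.65% in all. TMM scaled each kind of count on its own, which sets the typical difference near 0 (median 0.04), and calls are relative to that. On ERCC scaling the median gene changed by 0.47 in exons and -0.17 in introns, and the difference was not tested on that scaling. With fewer libraries the counts were smaller, 84, 73 and 9 in all without replicates 2, 3 and 4, and scaled on library size alone the split was 418 above and 65 below. Of the 224, 70 had exons called higher with introns not called, 65 had both called lower, and 61 had introns called lower with exons not called. The ATF4 list gave 18 of 32 genes above and 0 below, with a median difference of 1.36, so its introns fell further than its exons. Phgdh had a difference of 3.53 ± 0.40 (edgeR adjusted p = 0.000572). Yars, with introns at 19.8, 11.6 and 13.6 CPM in cycloheximide-treated cells, against 219.7, 140.5 and 183 CPM in untreated cells, had a difference of 2.78 ± 0.20 (edgeR adjusted p = 3.04e-05). It overlaps C77080 on the other strand. The exon change of Slc7a5 lay above its intron change by 2.57 and that of Il2 by 2.34. Immediate early genes gave 7 of 30 above and 0 below. Without replicates 2, 3 and 4 the ATF4 count was 14, 16 and 6 and the immediate early count 4, 4 and 0.

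Genes on the other side had introns above exons. Cx3cr1, a chemokine receptor gene at chr9:119901616-120069879, had intron counts of 2860.2, 3694 and 4490.3 CPM in cycloheximide-treated cells, against 226, 469 and 314 CPM in untreated cells, and an exon change of -0.57, a difference of -4.06 ± 0.38 (edgeR adjusted p = 0.000174). Its annotated span holds 5 other protein-coding genes, among them Csrnp1, whose exons rose by 3.04. Cyba, a subunit of the phagocyte oxidase, had introns at 125, 155 and 162 CPM in cycloheximide-treated cells, against 18.6, 28.5 and 23.6 CPM in untreated cells, a change of 2.66 ± 0.33 (edgeR adjusted p = 1.84e-09), and overlaps Gm20388 on the other strand. The part of such overlaps in these intron counts was not tested.

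**Figure D4:**
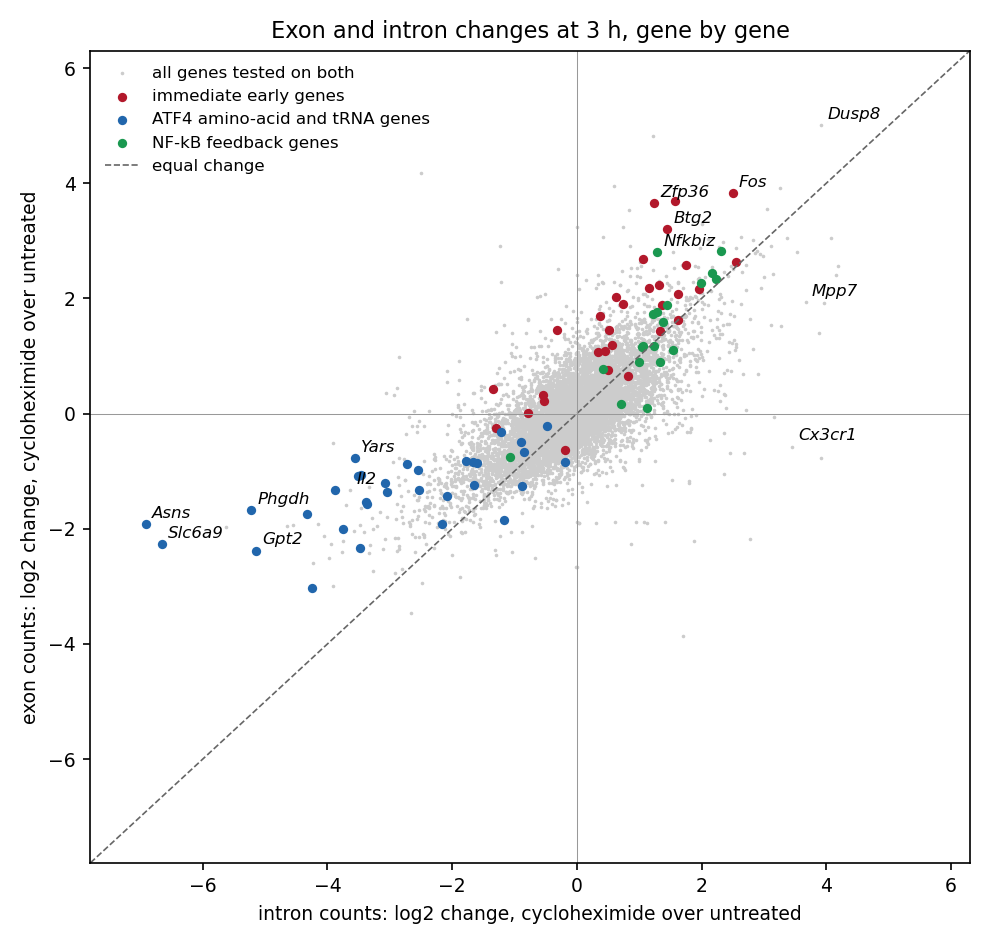
Log2 change of exon counts (vertical) against log2 change of intron counts (horizontal), cycloheximide-treated over untreated cells, for each gene tested in both. Grey points are all genes, red immediate early genes, blue ATF4 genes and green NF-kB genes, and the dashed line marks equal change; ATF4 genes lie above the line on the left (18 of 32 called).

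At 1 h, cycloheximide had changed 283 genes, 2.63% of those tested, 184 higher (1.71%) and 99 lower (0.922%). The difference between the change at 3 h and that at 1 h, each against untreated cells of its own time, was called for 226 genes (2.10%), 115 with a more positive change at 3 h (1.07%) and 111 with a more negative one (1.03%). With the replicate number as a block the count was 1148. Without replicates 2, 3 and 4 in turn it lay between 30 and 50, and on ERCC scaling it was 9, all more positive at 3 h. Fitted on the libraries compared alone it was 22, and scaled on library size alone the split was 98 and 144. At 1 h Egr1 had 2214, 1380.4 and 1962 CPM in treated cells and 467, 275 and 391 CPM in untreated cells, and Fos had 376, 485 and 555 CPM in treated cells and 72.9, 129.5 and 99.1 CPM in untreated cells. In both genes no untreated library reached a treated one. The change of Dusp8 was 5.01 at 3 h and 1.95 at 1 h, a difference of 3.06 ± 0.49 (edgeR adjusted p = 5.99e-05), and that of Egr4 5.14 at 3 h and 1.63 at 1 h, a difference of 3.51 ± 0.98 (edgeR adjusted p = 0.0397). On ERCC scaling the difference was 3.02 for Dusp8 and 3.55 for Egr4, and of these Dusp8 was called. Among falls, the change of Slc7a11 was -3.03 at 3 h and -0.99 at 1 h, a difference of -2.04 ± 0.57 (edgeR adjusted p = 0.0383). Immediate early genes were called higher in 29 of 40 at 3 h and in 15 at 1 h, ATF4 genes lower in 29 of 34 at 3 h and in 2 at 1 h, and histone genes higher in 42 of 54 at 3 h and in 0 at 1 h. On ERCC scaling the numbers at 1 h were 20 higher for immediate early genes and 0 lower for ATF4 genes. The difference itself was called on TMM for 5 immediate early, 7 ATF4 and 2 histone genes, and with the replicate block for 15, 27 and 14. On ERCC scaling it was called for 0 immediate early and 0 ATF4 genes.

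Harringtonine is set beside cycloheximide because both stop translation by binding the ribosome, at different steps and here at different doses. Tested directly, 0 of 10741 genes differed between the drugs at 3 h by edgeR, 0% called, and 0 by DESeq2. At an unadjusted p under 0.05 edgeR gave 228 genes and DESeq2 192. The replicate block gave 18 genes. Over the 24 genes named for the largest changes, the difference of cycloheximide minus harringtonine ran from -0.31 to 0.60, with a median of 0.04 and a median standard error of 0.37. Their 95% intervals reached from -1.73 to 1.31, and 14 of 24 lay within 1 log2 unit of 0. For immediate early genes 33 of 40 intervals lay within that range, for ATF4 genes 27 of 34, and for all genes 8009 of 10741. Egr1 had 2243, 1393 and 2066 CPM with cycloheximide, against 2246, 1698 and 2112 CPM with harringtonine. Sesn2 differed by 0.60, with an interval of 0.09 to 1.12, and did not pass the adjusted test. Against the same untreated libraries cycloheximide raised 29 and harringtonine 31 of 40 immediate early genes, and each lowered 29 of 34 ATF4 genes. Both comparisons share those controls.

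The effect of cycloheximide was also measured with transcription blocked by triptolide. Against triptolide alone, added cycloheximide changed 2936 genes (27.3%), 1697 higher (15.8%) and 1239 lower (11.5%). On ERCC scaling the split was 3714 higher and 38 lower, with the median gene at 0.62. The change without triptolide differed from that with triptolide for 2562 genes (23.9%), 1041 more positive without it (9.69%) and 1521 more negative (14.2%). On ERCC scaling the split was 345 and 1321, and on library size alone 737 and 1979. With the replicate number as a block the count was 3916, and it was 1711, 1828 and 1453 without replicates 2, 3 and 4. Zfp36 had 4.24, 7.06 and 5.42 CPM with both drugs, against 21.3, 34.8 and 29.1 CPM with triptolide alone, a change of -2.31 ± 0.42 (edgeR adjusted p = 9.31e-06), opposite in sign to its rise without triptolide, and -1.66 on ERCC scaling. Fos had 11.9, 26.9 and 18.7 CPM with both drugs, against 35.1, 31.3 and 61.3 CPM with triptolide alone, and Egr1 had 29.7, 37.8 and 24.1 CPM with both drugs, against 92.7, 115 and 111 CPM with triptolide alone. On ERCC scaling Fos changed by -0.43 and was not called, and Egr1 changed by -1.19 and was called. Of the 40 immediate early genes 15 fell and 1 rose with added cycloheximide in triptolide, and the difference was called more positive without triptolide for 28. On ERCC scaling 6 fell and 2 rose in triptolide, with a median of -0.18, and the difference was called for 23. Areg and Ier2 had differences of 6.04 and 5.19.

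Some falling genes also took another course in triptolide. Sesn2 had 65.7, 83.4 and 98.4 CPM with both drugs, against 20.7, 33.0 and 22.6 CPM with triptolide alone, a change of 1.77 ± 0.28 (edgeR adjusted p = 8.32e-07). Gemin5, which assembles spliceosomal particles, had 145, 117 and 157 CPM with both drugs, against 21.3, 15.7 and 21.8 CPM with triptolide alone, a change of 2.79 ± 0.23 (edgeR adjusted p = 4.58e-16). Asns had 30.1, 41.0 and 44.2 CPM with both drugs, against 23.0, 20.9 and 21.8 CPM with triptolide alone, and was not called at 0.80, but was called at 1.53 on ERCC scaling. Of the ATF4 list 9 of 34 rose and 4 fell in triptolide (14 and 0 on ERCC scaling), and the difference was called more negative without it for 23 (21 on ERCC scaling). The list's median in triptolide on ERCC scaling was 0.61, close to the 0.62 of all genes, of which 3714 of 10741 were higher and 38 lower. Ribosome biogenesis genes rose in 32 of 52 in triptolide, and their median was -0.74 without triptolide and 0.89 with it, and the difference was called for 45. On ERCC scaling 40 rose in triptolide and the difference was called for 34. Proteasome genes rose in 25 of 38 and chaperone genes in 15 of 32. Of the 1616 genes higher with cycloheximide alone, 404 (25%) were also higher with cycloheximide added to triptolide, which is 23.81% of the 1697 there, and 154 (9.53%) were lower. Of the 1609 lower genes, 263 (16.35%) were also lower, 21.23% of the 1239, and 265 (16.47%) were higher. These are TMM calls, and over all genes 15.8% were higher and 11.5% lower in triptolide. On ERCC scaling 3714 genes were higher there and 38 lower, and the overlap was not counted.

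Intron counts were also tested in these settings. Cycloheximide for 1 h changed 39 of 10750 introns (0.363%), 17 higher (0.158%) and 22 lower (0.205%). Introns of the ATF4 list were called lower in 6 of 32 at 1 h, with a median of -0.94, and those of NF-kB feedback genes higher in 1 of 19, with a median of 0.64. Cycloheximide added to triptolide changed 32 introns (0.298%), 27 higher (0.251%) and 5 lower (0.0465%). Harringtonine for 3 h changed 1459 introns (13.6%), 696 higher (6.47%) and 763 lower (7.10%), with 27 of 32 ATF4 introns lower and 16 of 19 NF-kB feedback introns higher.

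**Figure D5:**
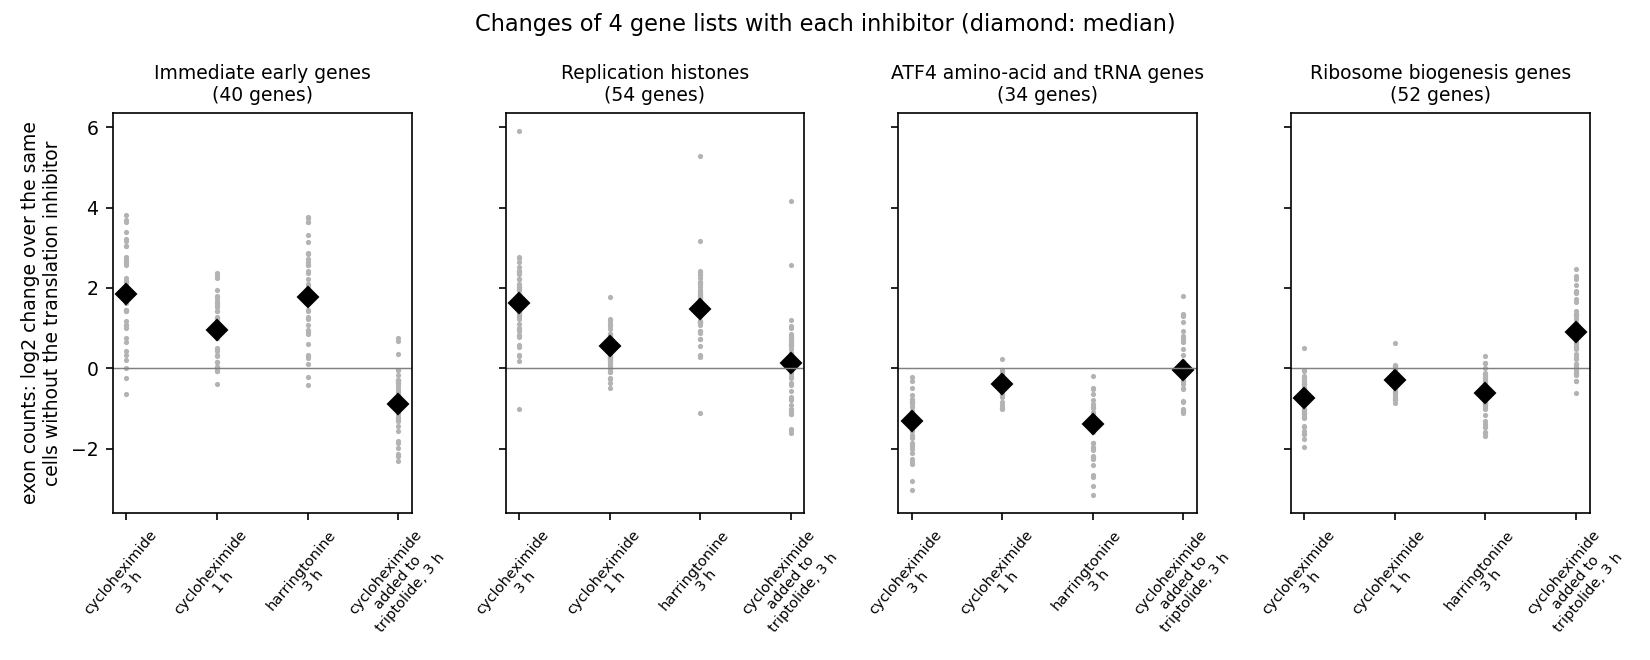
Log2 change in exon counts of each gene of 4 lists with cycloheximide for 3 h, cycloheximide for 1 h and harringtonine for 3 h (each over untreated cells of its time) and with cycloheximide added to triptolide for 3 h (over triptolide alone). Diamonds are medians on TMM scaling. Immediate early genes have medians of 1.84, 0.96, 1.77 and -0.88. Those of ribosome biogenesis genes are -0.74 with cycloheximide for 3 h and 0.89 with triptolide. On ERCC scaling the medians with triptolide are -0.18 for immediate early and 1.61 for ribosome biogenesis genes.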

How the data were processed

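The values are the read counts per gene in exons and in strictly intronic parts that the authors deposited as 1 table for all libraries of the series. Per the submitters' processing notes, mm10, TopHat2 2.0.13, Bowtie 1.1.1.0 and HTSeq were used. Other settings, and whether counting used strand, are not given in the sources used here. Another 315 columns of per-sample values were not used. The table held 22322 mouse genes and 92 ERCC RNAs, and 22124 genes had a symbol and GENCODE M21 coordinates on GRCm38. Counts not assigned to the exons of a gene made up 76.36% to 91.53% of each of the 6 libraries. Most of these were alignments that were not unique, at 52.53% to 81.68% of each library. Replicates differed beyond sampling noise.

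Counts were fitted with edgeR (quasi-likelihood, TMM, filterByExpr) on all libraries as 35 group means, and the exon minus intron contrast on the 6 libraries with a library term. P-values were adjusted by Benjamini-Hochberg over all genes tested. DESeq2 and limma-voom, other scalings, no filter, a replicate block and leaving out replicates were tried. The tests were tested on simulated data. In the exon fit, 88 of 100 genes planted with 4-fold changes and 45 of 100 with 2-fold changes were recovered among 10726 genes, with 5 false calls. In the exon minus intron fit, 66 of 100 and 5 of 100 were recovered among 7219 genes, with 7 false calls. Simulated libraries were drawn independently and with few changed genes, unlike the data, so these numbers need not hold for the data. Same-numbered libraries deviated together (correlations 0.53, 0.41 and 0.41 in exons and 0.59, 0.46 and 0.59 in introns), so the numbers pair them. The main fit and the permutation tests left this pairing out. The labels give the numbers and no source animal.

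Genes named are the 12 largest rises and 12 largest falls of the exon comparison (called, at least 10 CPM in 1 group, groups not overlapping), the 6 largest of each direction elsewhere, and, in each of 36 lists, 2 members by p and 2 by level. Predicted genes, pseudogenes, receptor segments and mitochondrial genes were left out of the first 2 rules. Some genes that meet these rules are not reported here. Other names were chosen after their values were seen. The comparison, lists and members were chosen with earlier results of these data known. Tools were R 4.3.3, edgeR 4.0.16, limma 3.58.1, DESeq2 1.42.0 and Python 3.11.15.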

Additional observations from a re-analysis of the deposited data

Results flagged for a closer look

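The change with cycloheximide differed between 3 h and 1 h by a test of the difference itself in 226 genes. The differences of the genes named for it, 3 h minus 1 h, were 3.51 for Egr4, 3.09 for Sgip1, 3.06 for Dusp8, 2.93 for Hpn, 2.89 for Tspan9 and 2.75 for Zbtb46, and -2.19 for Cldn12, -2.14 for Gpt2, -2.13 for Ttl, -2.05 for Cmss1 and -2.04 for Slc7a11. Of these 11, the calls of Dusp8 (3.02) and Tspan9 (2.89) held on ERCC scaling and the others did not. The change also differed between cells without and with triptolide by such a test, in 2562 genes. These differences, without minus with triptolide, were 6.23 for Dusp8, 6.04 for Areg, 5.97 for Zfp36, 5.86 for Egr4, 5.50 for Egr1 and 5.19 for Ier2, and -4.36 for Sesn2, -4.002 for Gemin5, -3.70 for Cd320, -3.69 for Akap1 and -3.54 for Fdft1. On ERCC scaling all 11 of these were called. Each value is on the log2 scale, and on TMM scaling each has an edgeR adjusted p under 0.05.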

How the results depend on the processing

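Over all named genes and all alternatives run on them, the call held in 2397 cases, a call was gained in 42 and lost in 185, and 4 changed sign. Of 103 named exon changes called, 24 lost the call on ERCC scaling and 24 on mitochondrial mRNA scaling. The 4 did so on mitochondrial mRNA scaling, Etf1 at 0.11, mt-Co1 at 0.0060, Eef2 at 0.10 and Zfp281 at 0.16. The exon count of 3225 was 4562 with the replicate block. It was 2141 without replicate 2, 2070 without replicate 4 and between 2070 and 2608 over the 3 replicates left out. The intron count of 1468 was 502 on ERCC scaling, 2759 with the replicate block, 2567 on the libraries compared alone and 705 to 930 with a replicate left out. The exon minus intron count of 342 was 565 without a filter and 9 to 84 with a replicate left out. The harringtonine count of 0 was 1 without a filter and 18 with the replicate block. The time count of 226 was 9 on ERCC scaling, 1148 with the block, 22 on the libraries compared alone and 30 to 50 with a replicate left out. The triptolide count of 2562 was 1666 on ERCC scaling, 3916 with the block and 1453 to 1828 with a replicate left out. Exon counts per ERCC count were 131.9% to 143.2% of untreated with a replicate left out, and intron counts 89.32% to 101.9%, on the other side of 100% without replicate 4. The cause was not tested. Leaving out a replicate leaves fewer libraries by construction. The replicate block ended no call among the named genes and added 16, those of Irf4, Satb1, Eif4a1, Son, Slc7a1, Rpl32, mt-Co3, Tubb4b, Hspa8, Psmb4, Gbp4, Igkc, Prf1, Tuba1a, Tubd1 and Il2ra. It changed no other call of a named gene. Where it moved a list count printed in the report by over 1.5 times, both counts stand there. Scaling the 1 h, harringtonine and triptolide lists on ERCC, and leaving out the 2 shallowest libraries of the series, were chosen after seeing the data. Depth limits the calls of genes with few counts.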

Other observations

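Mitochondrially encoded mRNAs fell in 12 of 13 when cycloheximide was added to triptolide, with a median of -2.04, and in 10 of 13 on ERCC scaling. Among 276 numbered Zfp genes, 43 had a more positive change without triptolide than with it and 11 a more negative one, or 62 and 20 with the replicate block.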
